A study of Mus musculus with 20 samples.

Results

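Insulin and the insulin-like growth factors bind receptor tyrosine kinases, encoded by Insr and Igf1r, which phosphorylate the adaptor proteins IRS1 and IRS2. The adaptors recruit PI3-kinase, its lipid product brings Akt to the membrane, and PDK1 (Pdpk1) and the mTOR complex 2 activate it there. Active Akt restrains the kinase GSK3β (Gsk3b) and the FoxO transcription factors and switches on mTOR complex 1; in brain the route is known for its part in neuronal survival, synaptic plasticity and glucose handling.

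The 9 genes described here are the kinases Akt1, Akt2, Pdpk1, Mtor and Gsk3b, the receptors Insr and Igf1r and the adaptors Irs1 and Irs2, taken by name. They were found by symbol among 55487 symbols of the prefrontal cortex count table and, through Ensembl identifiers, among 57180 genes of the hippocampal table. All 9 passed the filter on low counts in both tissues; 17760 genes were tested in cortex and 18873 in hippocampus. A list of 94 other genes of the route is given beside them.

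Poly(A) RNA was sequenced from wild-type C57/BL6 mice aged 2 to 6 months. Males received 5 mg/kg of lipopolysaccharide (LPS), an endotoxin of Gram-negative bacteria that sets off inflammation throughout the body (4 libraries), or 0.9% saline (4 libraries) into the peritoneum, and prefrontal cortex was dissected 24 hours later. Hippocampus came from mice given 0.2 mg/kg of nicotine, which activates nicotinic acetylcholine receptors (6 libraries), or 0.9% saline (6 libraries), also 24 hours earlier. The labels put the cortical libraries in batch 1 and the hippocampal ones in batch 2, so tissue and batch cannot be told apart and each treatment was tested within its own tissue.

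For 4 of the 8 cortical libraries (Samples 2L, 4L, 6L and 8L) the treatment in the title and treatment field is the reverse of that in the name of the count column. Libraries were grouped by column name. Lcn2, a gene known to be induced by LPS, had 254 to 367 CPM (counts scaled by library with TMM factors) in the LPS group, against 0.676 to 13.5 CPM in the saline group. Grouped by title, edgeR called 0 of 17760 genes, with 201 at an unadjusted p under 0.05, so every cortical result below rests on the column names. Library totals were 39871000 to 42924749 counts with LPS and 36371084 to 46106526 with saline in cortex. They were 53145736 to 62982229 counts with nicotine and 51969343 to 68196280 with saline in hippocampus. The 7 cortical projection neuron markers had summed levels of 6447 to 8292 CPM with LPS and 5130 to 6892 CPM with saline in cortex, and of 6792 to 8667 CPM with nicotine and 6386 to 7994 CPM with saline in hippocampus, so this list does not tell the dissections apart. Striatal markers were present too and varied between dissections (385 to 1670 CPM with LPS, 296 to 1235 CPM with saline). In hippocampus the sum of 8 choroid plexus markers spanned 60.3 to 2355 CPM with nicotine and 43.1 to 4010 CPM with saline.

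Promoter windows from RefSeq (GRCm38.p6, the same assembly as mm10, 250 bases before to 50 after the start) show what DNA precedes the called genes that changed most and, for comparison, Akt1. Of the 9 genes 8 matched the table and Insr did not. The windows were searched on both strands for the FoxO core GTAAACA, the cAMP response element TGACGTCA, the E-box CACGTG and the glucocorticoid receptor element, and a match is printed in capitals. The window of the most upstream Akt2 start lies at chr7:27591302-27591601 on the plus strand. The Irs2 window lies at chr8:11008880-11009179 on the minus strand and the upstream one of Akt1 at chr12:112674835-112675134 on the minus strand.
Akt2: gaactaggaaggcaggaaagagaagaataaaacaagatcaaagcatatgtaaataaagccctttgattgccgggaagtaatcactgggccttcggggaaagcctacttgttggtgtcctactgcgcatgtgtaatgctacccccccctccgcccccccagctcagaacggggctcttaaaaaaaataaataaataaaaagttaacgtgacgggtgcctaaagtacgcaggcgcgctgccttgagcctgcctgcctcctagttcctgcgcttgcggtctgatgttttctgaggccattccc
Irs2: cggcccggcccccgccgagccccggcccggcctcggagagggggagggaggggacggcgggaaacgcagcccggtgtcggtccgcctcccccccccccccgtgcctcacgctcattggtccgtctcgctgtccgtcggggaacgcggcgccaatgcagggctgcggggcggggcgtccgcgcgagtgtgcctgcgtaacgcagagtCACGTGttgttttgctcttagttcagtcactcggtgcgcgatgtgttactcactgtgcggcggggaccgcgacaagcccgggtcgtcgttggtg
Akt1: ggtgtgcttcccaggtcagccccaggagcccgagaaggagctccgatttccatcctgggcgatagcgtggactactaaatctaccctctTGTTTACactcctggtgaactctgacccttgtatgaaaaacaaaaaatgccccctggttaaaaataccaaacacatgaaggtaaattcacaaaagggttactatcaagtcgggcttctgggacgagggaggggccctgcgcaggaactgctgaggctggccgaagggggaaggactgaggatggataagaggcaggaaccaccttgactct
The Akt2 window had 50% G and C bases and 12 CG dinucleotides and held none of these motifs. The Irs2 window had 72% G and C bases and 41 CG dinucleotides, against medians of 52.7% and 7 over all 32851 windows. It held an E-box 44 bases before the start, a motif present in 7.15% of all windows and also in that of Irs1, 115 bases before the start. The upstream Akt1 window held a FoxO core 161 bases before the start on the opposite strand, a motif present in 3.65% of all windows. The other Akt1 window, at chr12:112674227-112674526, held none of these motifs and had 79.7% G and C bases and 42 CG dinucleotides. The cAMP response element was in 1.79% of windows and the glucocorticoid receptor element in 3 of them. These matches describe letters only.

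With LPS, Akt2 transcripts fell by 44.2% in prefrontal cortex and Irs2 transcripts rose 1.80-fold, while Gsk3b rose 1.28-fold and Insr 1.24-fold. Akt1, Igf1r, Irs1, Pdpk1 and Mtor did not pass the test. The comparison asks which transcripts of the route differ in prefrontal cortex after systemic LPS. Of the 9 genes, 3 were called higher and 1 lower (edgeR quasi-likelihood test, Benjamini-Hochberg adjusted over all genes, threshold 0.05). The response was broad: 41.2% of all 17760 genes tested were called, 21.5% higher and 19.7% lower. The share of the 9 genes called, 44.4%, lies close to that background. Their median log2 change was 0.02, against 0.01 over all genes. The ranges of LPS and saline libraries did not overlap for 4 of the 9 genes, against 37.1% of all genes.

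**Figure D1:**
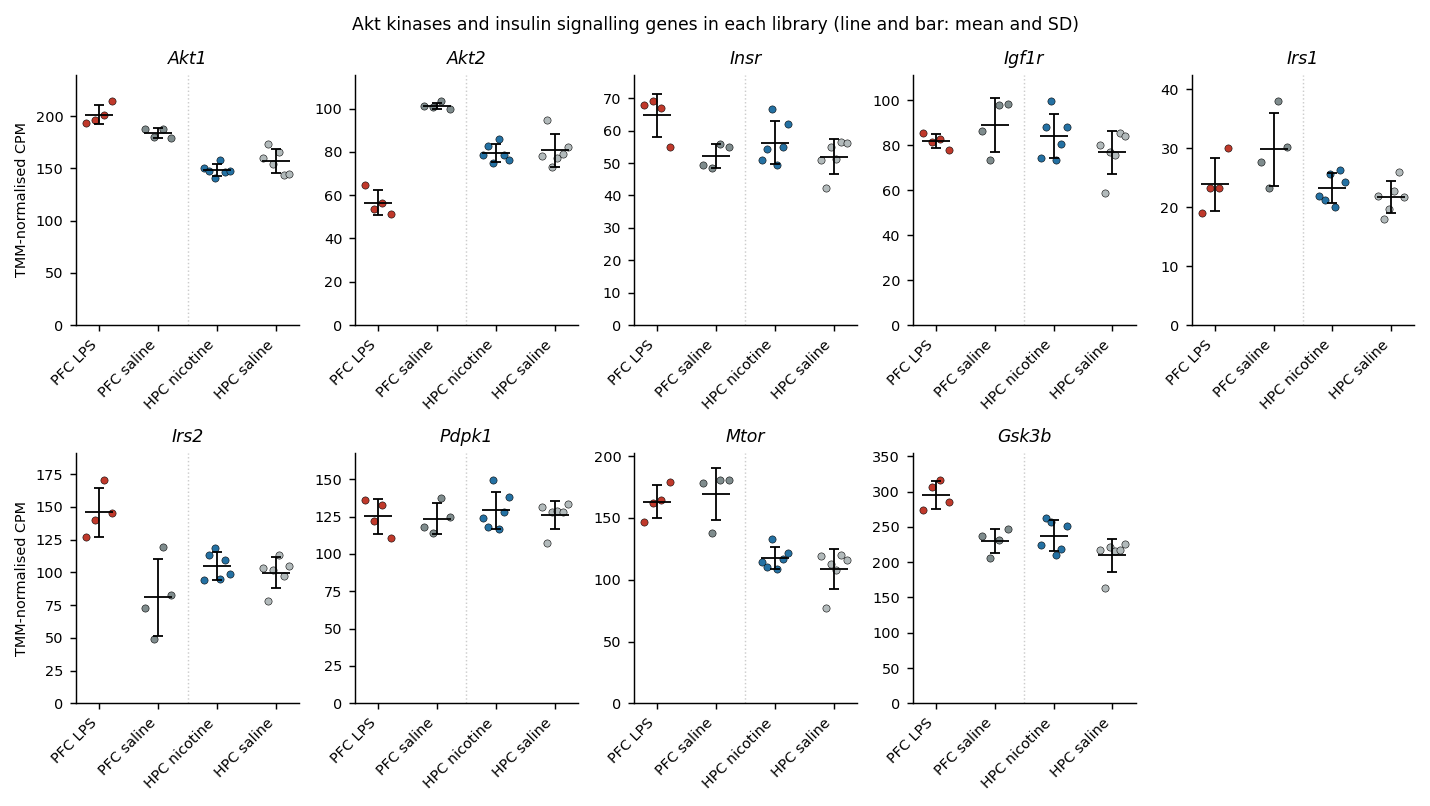
TMM-normalised CPM of the 9 genes in each library, with prefrontal cortex libraries left of the dotted line and hippocampal ones right of it; lines and bars are the mean and SD (n = 4 per cortical and 6 per hippocampal group). Akt2 lay between 51.4 and 64.6 CPM in the LPS libraries, below all saline libraries of the same tissue (99.6 to 103 CPM), and the nicotine and saline groups overlapped for every gene.

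At the level of the receptors, Insr (ENSMUSG00000005534, mm10 chr8:3122061-3279617, minus strand), which encodes the insulin receptor, had 67.8, 69.1, 67.0 and 54.9 CPM in LPS Samples 2L, 4L, 5L and 7L, against 49.5, 48.4, 55.9 and 54.9 CPM in saline Samples 1L, 3L, 6L and 8L. Samples 2L, 4L and 5L lay above all saline libraries and Sample 7L lay within their range. Insr rose, with log2 change 0.31 (SE 0.09, edgeR adjusted p = 0.016). The call was lost when Sample 4L or 5L of the LPS group or Sample 1L or 3L of the saline group was left out (adjusted p 0.0502 to 0.0620), and with only the 4 libraries whose labels agree (adjusted p = 0.0774). Igf1r (ENSMUSG00000005533, chr7:67952827-68233668, plus strand), the receptor of the insulin-like growth factors, had 85.6, 81.6, 82.8 and 78.0 CPM with LPS and 86.2, 73.5, 98.1 and 98.5 CPM with saline. These groups overlapped, and the log2 change of -0.12 did not pass (SE 0.09, edgeR adjusted p = 0.323). Among fits with 1 library left out it passed only without saline Sample 3L, the lowest saline library (log2 change -0.21, edgeR adjusted p = 0.0428).

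The ratio of Insr to Igf1r within a library, in counts per kilobase of exon, does not depend on library scaling. It was 0.969, 1.03, 0.989 and 0.861 with LPS, against 0.701, 0.805, 0.697 and 0.681 with saline. Every LPS library lay above every saline library. The mean was 0.963 ± 0.0734 with LPS and 0.721 ± 0.0568 with saline (SD, n = 4 each), a difference of 0.42 in log2 ratio. The exact two-sided permutation test gave p = 0.0286, the smallest that 4 against 4 libraries allow, and 0.0571 after adjustment over the 4 ratio tests of both tissues.

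Among the adaptors, Irs2 (ENSMUSG00000038894, chr8:10984681-11008458, minus strand), which carries the signal of both receptors and is itself a known FoxO target in liver, had 127, 139.9, 171 and 145 CPM with LPS, against 72.5, 49.1, 119 and 82.4 CPM with saline. The LPS libraries lay above all saline libraries, and saline Sample 6L came nearest to them. Irs2 rose, with log2 change 0.85 (SE 0.21, edgeR adjusted p = 0.00686). Its saline libraries had the widest spread of the 9 genes, a coefficient of variation of 36.2%, and the log2 change ranged from 0.66 to 1.09 as single libraries were left out, with the call kept each time. Irs1 (ENSMUSG00000055980, chr1:82233101-82291416, minus strand), the sister adaptor, had 19.0, 23.2, 23.2 and 30.0 CPM with LPS and 27.7, 23.3, 37.9 and 30.2 CPM with saline. The groups overlapped, and the log2 change of -0.32 did not pass (SE 0.16, edgeR adjusted p = 0.131). Among fits with 1 library left out it passed only without LPS Sample 7L, the highest LPS library (log2 change -0.46, edgeR adjusted p = 0.0375). With only the 4 libraries whose labels agree the log2 change was 0.05 (edgeR adjusted p = 0.833). The predicted antisense gene Gm9747 overlaps 30.9% of the Irs1 exon bases, so without a stated strand setting some Irs1 reads could belong to it.

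The Irs2 to Irs1 ratio per kilobase was 9.66, 8.74, 10.6 and 7.02 with LPS and 3.78, 3.05, 4.55 and 3.94 with saline. Irs2 was the more abundant adaptor in every library, and the ratio was higher in all 4 LPS libraries than in any saline library. It averaged 9.01 ± 1.54 with LPS and 3.83 ± 0.618 with saline (SD, n = 4 each), a 2.35-fold difference (exact two-sided permutation p = 0.0286, 0.0571 after adjustment over the 4 ratio tests).

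Of the Akt kinases, Akt2 fell and Akt1 did not pass the test. Akt2 (ENSMUSG00000004056, chr7:27591552-27640826, plus strand), the isoform best known for insulin-driven glucose uptake, had 64.6, 53.5, 56.4 and 51.4 CPM with LPS, against 101, 101, 103 and 99.6 CPM with saline. All 4 LPS libraries were below all saline libraries, and the saline libraries differed little, with a coefficient of variation of 1.55%, the smallest of the 9 genes. Akt2 fell by 0.84 on the log2 scale (SE 0.08, 95% interval -1.01 to -0.67, edgeR adjusted p = 1.88e-05), and the call was kept under every alternative run except the grouping by title.

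Akt1 (ENSMUSG00000001729, chr12:112653821-112674884, minus strand), the widely expressed isoform known for growth and survival, had 193, 196, 201 and 214 CPM with LPS, against 188, 179.6, 188 and 179.5 CPM with saline. The LPS libraries all lay above the saline libraries, by a margin small against the level. The log2 change of 0.13 did not pass (SE 0.06, edgeR adjusted p = 0.102).

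The ratio of Akt2 to Akt1 per kilobase was 0.192, 0.156, 0.161 and 0.138 with LPS, against 0.310, 0.322, 0.316 and 0.319 with saline. Every LPS library lay below every saline library. The ratio averaged 0.162 ± 0.0224 with LPS and 0.317 ± 0.0049 with saline (SD, n = 4 each), a log2 difference of -0.98, and is given as a description because it was chosen after its values were seen.

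**Figure D2:**
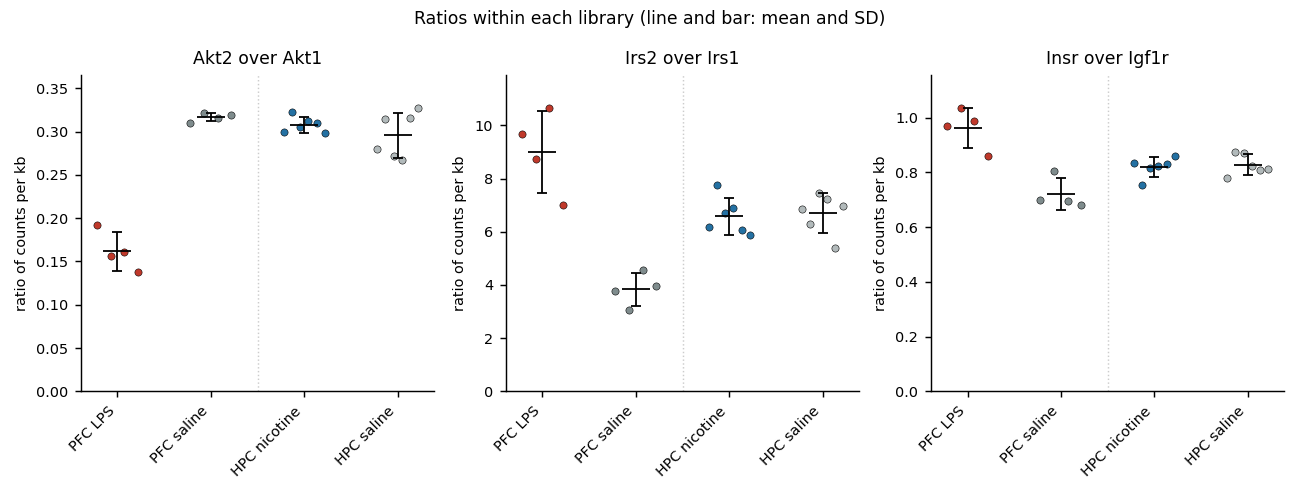
Ratios within each library in counts per kilobase of exon: Akt2 over Akt1, Irs2 over Irs1 and Insr over Igf1r, with the mean and SD of each group (n = 4 per cortical and 6 per hippocampal group). LPS and saline libraries did not overlap in any of the 3 panels, while nicotine and saline libraries overlapped in all of them.

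Of the kinases around Akt, Gsk3b (ENSMUSG00000022812, chr16:38089001-38246084, plus strand), whose product Akt inhibits by phosphorylation, had 273, 306, 317 and 285 CPM with LPS and 237, 206, 231 and 247 CPM with saline. The groups did not overlap. Gsk3b rose, with log2 change 0.36 (SE 0.08, edgeR adjusted p = 0.00303). Pdpk1 (ENSMUSG00000024122, chr17:24073680-24150924, minus strand), the kinase that activates Akt, had 110.4 to 136 CPM with LPS and 114 to 138 CPM with saline, and its log2 change of 0.02 did not pass (95% interval -0.17 to 0.20, edgeR adjusted p = 0.885). Mtor (ENSMUSG00000028991, chr4:148448611-148557683, plus strand), the catalytic subunit of both mTOR complexes, had 147, 162, 164 and 179 CPM with LPS and 178, 138, 181 and 180.5 CPM with saline. Saline Sample 3L lay apart from the other saline libraries, and the log2 change of -0.05 did not pass (95% interval -0.26 to 0.16, edgeR adjusted p = 0.679).

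**Figure D3:**
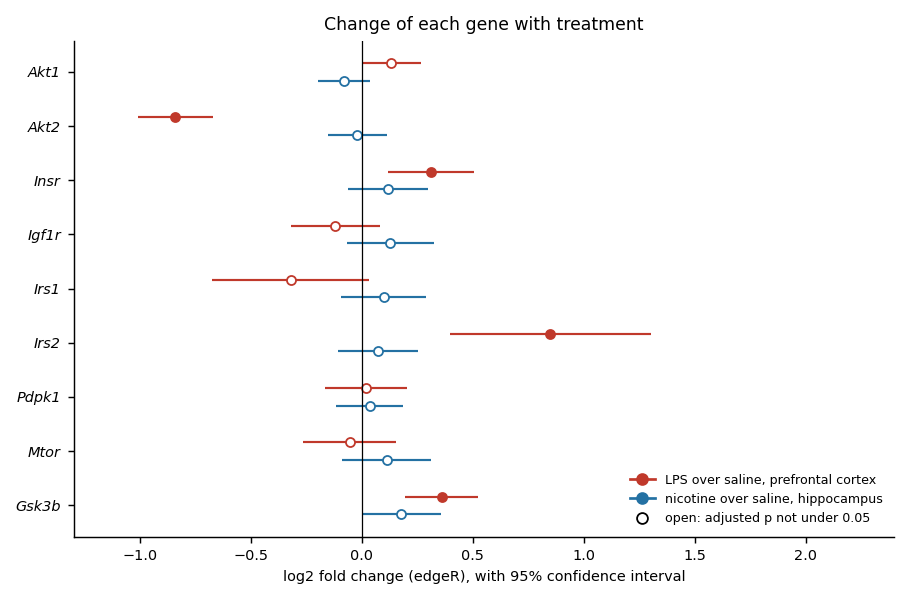
Log2 change of the 9 genes with its 95% confidence interval from edgeR, for LPS over saline in prefrontal cortex (red, n = 4 each) and nicotine over saline in hippocampus (blue, n = 6 each); open points did not pass an adjusted p of 0.05. With LPS, Akt2 lies left of 0 and Insr, Irs2 and Gsk3b right of it as filled points, and every interval for nicotine includes 0.

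Some cell type markers were called with LPS, where 41.2% of all genes tested were called, 21.5% higher and 19.7% lower. Striatal markers had 0 calls among 8. The summed level of 6 microglial markers was 191 to 270 CPM with LPS and 300 to 327 CPM with saline, with 0 markers called higher and 3 lower. The sum of 6 hippocampal neuron markers was 413 to 576 CPM with LPS and 291 to 368 CPM with saline, with 3 called higher. Of 7 oligodendrocyte markers 2 were called lower, and their sum overlapped between groups (2599 to 3524 CPM with LPS, 2895 to 3880 CPM with saline). The sum of 8 leukocyte markers was 4.24 to 9.55 CPM with LPS and 2.15 to 4.12 CPM with saline, with 3 tested and 1 called higher, and with Ccr2, Ly6c2, Cd3e, Ms4a1 and Plac8 under 1 CPM. Of 7 cortical projection neuron markers 1 was called higher, and of the 6 tested choroid plexus markers also 1 (a sum of 13.7 to 28.6 CPM with LPS and 15.4 to 20.5 CPM with saline). Endothelial markers (2 higher and 2 lower of 7) and astrocyte markers (2 higher and 2 lower of 6) moved both ways. With the oligodendrocyte markers as a covariate Akt2 was still called (log2 change -0.71, edgeR adjusted p = 0.00333), while Irs2, Insr and Gsk3b were not, at log2 changes of 0.96, 0.39 and 0.32 and edgeR adjusted p values of 0.0644, 0.0848 and 0.0934, in that order. The fit with the oligodendrocyte covariate called fewer of all 17760 genes, 1415 higher and 1081 lower, against 3811 and 3502 without it. With the striatal markers as a covariate Akt2, Irs2, Insr and Gsk3b were all called. The part of the other marker lists in these results was not tested, and in bulk tissue fewer cells of a type and less RNA per cell cannot be told apart.

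Of the 94 other genes of the route 91 were tested in cortex, and edgeR called 32 higher and 17 lower (53.8%, against 41.2% of all genes, of which 21.5% were higher and 19.7% lower). The median log2 change was 0.12, against 0.01 over all genes. The ranges of LPS and saline libraries did not overlap for 43 of them, against 37.1% of all genes. Up to 3 genes with the smallest p in each role are named here. Among 7 ligands and binding proteins 3 rose and 3 fell, a share of 85.7% beside the 41.2% called among all genes. Igfbp3, which carries insulin-like growth factors, had 26.4, 35.3, 38.2 and 36.6 CPM with LPS and 14.1, 12.2, 11.4 and 12.6 CPM with saline (log2 change 1.44 (SE 0.13, edgeR adjusted p = 1.2e-05)), and these groups lay far apart. Igfbp4 rose by 0.35 and Igfbp5 fell by 0.46 on the log2 scale. The ligand Igf1 averaged 12.2 ± 3.38 CPM with LPS and 17.4 ± 2.65 CPM with saline (SD, n = 4 each). It was called lower close to the threshold (log2 change -0.52, SE 0.19, edgeR adjusted p = 0.0483). The ligands Ins2 and Igf2, with 2 and 0 counts over the 8 libraries, and the binding protein Igfbp1, with 10, did not pass the filter on low counts; 64.5% of the Igf2 exon bases are shared with Gm49394 and Igf2os, so its count is uncertain.

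Of 12 other receptors and receptor adaptors 4 rose and 3 fell, a share of 58.3% beside the 41.2% called among all genes. Sh2b2, an adaptor that binds the activated insulin receptor, had 16.2, 18.1, 17.7 and 18.7 CPM with LPS, against 7.05, 6.2, 6.26 and 5.96 CPM with saline, and every LPS library exceeded all saline libraries (log2 change 1.47 (SE 0.11, edgeR adjusted p = 2.92e-06)). The docking protein gene Gab2 rose by 0.77 and Sos1, the exchange factor that couples receptors to Ras, by 0.38 on the log2 scale. Of 6 PI3-kinase subunits 2 rose and 1 fell, a share of 50% beside the same 41.2%. Pik3r1, which encodes the p85α regulatory subunit, had 221, 226, 217 and 200.3 CPM with LPS and 149, 142, 143 and 167 CPM with saline, with no overlap (log2 change 0.53 (SE 0.07, edgeR adjusted p = 0.000245)). Pik3r2 was called higher (0.26) and Pik3r3 lower (-0.32). The Pik3r2 call was lost in 6 of the 8 fits with 1 library left out and the Pik3r3 call in 4, and 24.3% of the Pik3r3 exon bases are shared with Gm49337.

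Of 14 phosphatases and feedback inhibitors 5 rose and 3 fell, a share of 57.1% beside the 41.2% called among all genes. Socs3, a feedback inhibitor of cytokine and insulin receptors, had 11.8, 28.2, 31.0 and 29.9 CPM with LPS, against 3.26, 4.20, 2.92 and 6.89 CPM with saline (log2 change 2.55 (SE 0.33, edgeR adjusted p = 0.000151)). LPS Sample 2L was well below the other LPS libraries and still above all saline libraries. Inpp5k, a phosphatase that removes the lipid signal of PI3-kinase, had 52.5, 52.0, 47.9 and 57.9 CPM with LPS and 30.7, 31.0, 30.9 and 35.4 CPM with saline (log2 change 0.72 (SE 0.09, edgeR adjusted p = 9.76e-05)). Trib2, a pseudokinase, had 27.0, 23.3, 23.3 and 26.1 CPM with LPS and 40.0, 40.4, 45.3 and 39.5 CPM with saline, and fell by 0.73 on the log2 scale.

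In the mTOR branch 2 of 13 complex members and regulators rose and 4 fell. Their share called, 46.2%, lies close to the 41.2% among all genes. Ddit4, an inhibitor of mTOR complex 1, had 77.6, 86.3, 106 and 94.2 CPM with LPS, against 32.5, 32.5, 45.5 and 46.9 CPM with saline (log2 change 1.21 (SE 0.14, edgeR adjusted p = 7.86e-05)). Rheb, the small GTPase that activates the same complex, fell by 0.47 on the log2 scale, with 72.6 to 84.7 CPM with LPS and 98.6 to 115 CPM with saline (edgeR adjusted p = 0.000565). Prr5l, a partner of mTOR complex 2, fell by 0.89. Of 6 mTOR outputs 3 rose and 0 fell, a share of 50% beside the 41.2% called among all genes. These were Rps6kb1, the S6 kinase gene (0.48), Ulk1, the autophagy kinase gene (0.28), and Rps6kb2 (0.30). The Rps6kb2 call was lost in 6 of the 8 fits with 1 library left out, and 23.7% of its exon bases are shared with Coro1b and Ptprcap.

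Of 11 Akt substrates 3 rose and 1 fell, a share of 36.4% beside the 41.2% among all genes. Mdm2, the ligase that degrades p53, rose by 0.37 and Gsk3a, the other GSK3 gene, by 0.26, and Tbc1d4, which controls glucose carrier vesicles, fell by 0.74. Gsk3a shares 28.3% of its exon bases with the gene 9130221H12Rik on the other strand, which leaves its value uncertain. Of 8 related kinases and Akt partners 3 rose and 2 fell, a share of 62.5% beside the same 41.2%. Sgk1, a kinase related to Akt and known to be induced by glucocorticoids, had 171, 163, 201 and 158 CPM with LPS, against 39.9, 38.2, 50.4 and 84.9 CPM with saline (log2 change 1.70 (SE 0.22, edgeR adjusted p = 0.000142)). Sgk3 rose by 1.35, and Cdc37, the co-chaperone that stabilises kinases, fell by 0.35.

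Of 11 FoxO target genes 6 rose and 0 fell, a share of 54.5% called, against 41.2% of all genes and 21.5% called higher. Among the 6, Trim63 was called at a very low level, 0.305 to 0.440 CPM with LPS and 0.0769 to 0.216 CPM with saline. Txnip, which limits glucose uptake, had 50.6, 60.8, 67.9 and 53.9 CPM with LPS and 16, 18.3, 21.2 and 17.2 CPM with saline (log2 change 1.68 (SE 0.12, edgeR adjusted p = 2.46e-06)), and 19.4% of its exon bases are shared with the antisense gene Gm15441. Pdk4, which holds back pyruvate oxidation, had 18.7 to 22.8 CPM with LPS and 6.03 to 10.4 CPM with saline (log2 change 1.40 (SE 0.15, edgeR adjusted p = 5.42e-05)). Sesn1, a stress-induced inhibitor of mTOR complex 1, rose by 0.73 with 91.6 to 97.8 CPM with LPS and 52.5 to 64.4 CPM with saline. Of 3 glucose carriers Slc2a4, the insulin-responsive carrier, rose (1.43) at a low level of 1.77 to 2.76 CPM with LPS and 0.647 to 1.06 CPM with saline. Slc2a1, the carrier of the blood-brain barrier, had a log2 change of 0.23 that did not pass (edgeR adjusted p = 0.162). Among fits with 1 library left out it passed only without saline Sample 8L, the highest (log2 change 0.37, edgeR adjusted p = 0.00802). It also passed with only the 4 libraries whose labels agree, which leave out Sample 8L (log2 change 0.39, edgeR adjusted p = 0.0312). Slc2a3, the neuronal carrier, did not pass (0.07).

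Some of these calls depended on the libraries or the model. Over all 17760 genes the oligodendrocyte covariate left 1415 called higher and 1081 lower, against 3811 and 3502 in the main fit. With only the 4 libraries whose labels agree, Igfbp4, Ulk1 and Gsk3a were not called (edgeR adjusted p = 0.117, 0.127 and 0.129), nor were Pik3r2, Pik3r3 and Rps6kb2. With the oligodendrocyte covariate the same 6 genes were not called (Igfbp4 0.156, Ulk1 0.208 and Gsk3a 0.105, as edgeR adjusted p), and Igfbp5, Gab2, Sos1, Prr5l, Mdm2, Tbc1d4 and Cdc37 were not called either.

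**Figure D4:**
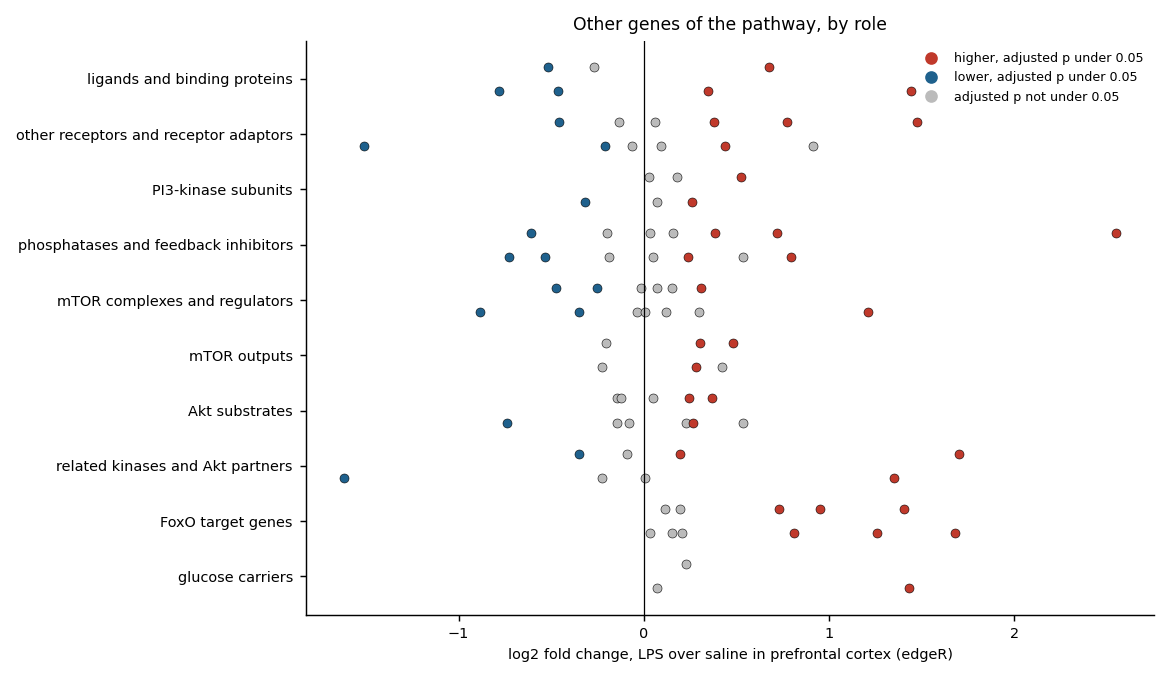
Log2 change, LPS over saline in prefrontal cortex, of the 91 tested genes of the route by role, each point a gene from the edgeR fit (n = 4 libraries each). Red points were called higher, blue points lower and grey points did not pass. Called genes lie on both sides of 0 in most roles, and Socs3 is the point farthest to the right.

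In nicotine-treated hippocampus none of the 9 genes passed the test against saline. The comparison asks which transcripts of the route differ 24 hours after nicotine. edgeR called 0 of 18873 genes (0%), with 1577 at an unadjusted p under 0.05; limma-voom called 0, and DESeq2 8 higher and 7 lower, none of them among the 9 genes or the 89 other tested genes of the route. The groups overlapped for all 9 genes, against 0.387% of all genes with no overlap. The log2 changes ran from -0.08 for Akt1 to 0.18 for Gsk3b, and the 95% intervals of the 9 genes together spanned folds of 0.871 to 1.28, a width set by the spread between the 6 libraries of each group.

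Akt2 had a lowest, median and highest level of 74.8, 78.6 and 85.9 CPM with nicotine, against 72.8, 78.5 and 94.7 CPM with saline. The groups covered nearly the same range, and the log2 change was -0.02 (SE 0.06, edgeR adjusted p = 0.940). Gsk3b, the gene with the smallest unadjusted p of the 9 (0.0510), had 211, 238 and 263 CPM with nicotine and 163, 217 and 225 CPM with saline (lowest, median and highest; edgeR adjusted p = 0.594). Irs2 had 93.8, 104 and 119 CPM with nicotine and 78.1, 103 and 113 CPM with saline, and Insr 49.4, 54.6 and 66.6 CPM with nicotine and 42.2, 53.0 and 56.5 CPM with saline. Their log2 changes were 0.07 and 0.12. Akt1 changed by -0.08, Igf1r by 0.13, Irs1 by 0.10, Pdpk1 by 0.04 and Mtor by 0.11 on the log2 scale, with adjusted p values of 0.594 to 0.940 over the 9 genes.

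Saline Sample 2N stood apart. It had the lowest saline level of 7 of the 9 genes and the highest of Akt1 and Akt2, with the highest oligodendrocyte marker sum of the 12 libraries (7977 CPM). Its choroid plexus sum of 1383 CPM was below those of nicotine Sample 11N (2355 CPM) and saline Sample 5N (4010 CPM). Its share of mitochondrial counts, 9.10%, was the highest of the saline libraries and within the range of 5.60% to 11.6% with nicotine. Without it the log2 change of Gsk3b was 0.11 and that of Mtor 0.03, and Akt2 and Pdpk1 took the other sign (0.03 and -0.01). With the choroid plexus markers as a covariate, too, none of the 9 genes was called.

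Neither tested ratio passed with nicotine, and neither had passed with LPS after adjustment. Irs2 to Irs1 averaged 6.57 ± 0.687 with nicotine and 6.70 ± 0.750 with saline (exact two-sided permutation p = 0.797, SD, n = 6 each), and Insr to Igf1r 0.819 ± 0.0352 with nicotine and 0.828 ± 0.0380 with saline (exact permutation p = 0.693). Akt2 to Akt1 averaged 0.308 ± 0.00922 with nicotine and 0.296 ± 0.0259 with saline, given as a description. Of the 89 other genes of the route tested, 0 were called and 4 had an unadjusted p under 0.05. Ins2, Igf2, Igfbp1, Insrr and Trim63 did not pass the filter, with 144, 0, 58, 80 and 47 counts over the 12 libraries. The Akt2 response to LPS and that to nicotine lie in different tissues and batches, and the difference between them was not tested.

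Per kilobase of exon, Akt1 was the most abundant of the 9 genes in cortex, with 49.1 ± 2.23 CPM per kb with LPS and 44.8 ± 1.14 with saline (SD, n = 4 each). Gsk3b followed with 30.0 ± 2.00 CPM per kb with LPS and 23.4 ± 1.76 with saline, in each group clear of its neighbours in the order. Irs2 came next with LPS (23.0 ± 2.92), ahead of Mtor with no overlap, and with saline its range (12.8 ± 4.63) overlapped those of Akt2 and Pdpk1. Akt2 stood below Pdpk1 with no overlap with LPS, at 7.92 ± 0.809 CPM per kb, and with saline between Mtor and Irs2, whose ranges it overlapped, at 14.2 ± 0.22. Irs1 had the lowest mean in all 4 groups, at 2.61 ± 0.497 with LPS and 3.26 ± 0.672 with saline in cortex, where the saline range (2.54 to 4.15) overlapped that of Insr (3.52 to 4.07). In hippocampus Akt1 led too, with 36.2 ± 1.39 CPM per kb with nicotine and 38.3 ± 2.80 with saline, ahead of Gsk3b with 24.2 ± 2.26 with nicotine and 21.4 ± 2.37 with saline (SD, n = 6 each). Akt1 and Gsk3b did not overlap in either group. Akt2 (11.1 ± 0.579 with nicotine, 11.3 ± 1.06 with saline) overlapped its neighbours Pdpk1 and Mtor in the saline group and Mtor in the nicotine group.

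Across the 8 cortical libraries the genes whose log2 CPM followed Akt2 most closely, among 10010 genes with a mean of at least 10 CPM, were Atp2c1 (Pearson r = 0.996), Desi1 (0.995), 4930402H24Rik (0.995), Drosha (0.993) and Pla2g15 (0.993). All 5 were lower with LPS, with log2 changes from -1.12 to -0.43, and the 8 libraries share the split into LPS and saline. Atp2c1, a Golgi calcium pump gene, averaged 64.6 ± 10.7 CPM with LPS and 138 ± 2.88 CPM with saline (SD, n = 4 each). Over the 12 hippocampal libraries the same genes had r of -0.65, 0.71, -0.14, -0.47 and -0.24 with Akt2, in the order given. Among the 9 genes, Igf1r was the closest to Akt2 in cortex (0.44) and Gsk3b the most opposed (-0.90); in hippocampus Akt1 had 0.51 and Mtor -0.82. These correlations describe the libraries and share their depth and scaling. Saline Sample 2N had the highest Akt2 (94.7 CPM) and Akt1 (173 CPM) and the lowest Mtor (76.8 CPM) of the 12 hippocampal libraries. How far the hippocampal correlations depend on that library was not tested, and their values without it were not computed.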

How the data were processed

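The authors deposited raw gene counts for 8 prefrontal cortex and 12 hippocampal libraries in 1 table per tissue, with no normalization. RNA was extracted with TRIzol and libraries were poly(A)-selected, per the labels' protocols. fastp, STAR, featureCounts, DESeq2 and the build mm10 are named without roles or versions, per the submitters' processing notes; which annotation and strand setting were used is not given in the sources used here, so reads of overlapping or antisense genes may be split. The labels give no sex for the hippocampal mice and no route for nicotine.

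The tissues were fitted separately in edgeR 4.0.16 (R 4.3.3) with TMM factors and filterByExpr, tested with the quasi-likelihood F-test and adjusted over all genes by Benjamini-Hochberg at a threshold of 0.05. The SE of a log2 change is its size over the square root of F. Levels are TMM-normalised CPM. Hippocampal identifiers, exon lengths and coordinates came from GENCODE vM21; 5247 of 57180 identifiers did not match and held 1.13% of counts. Ratios within libraries were tested with exact two-sided permutation tests (scipy 1.17.1). No 2 libraries of a group agreed within sampling noise (lowest chi-square per degree of freedom 11.0). Labels do not tie libraries to cages or litters, so a p-value reflects only how far these libraries spread, which may be technical. The median 95% interval of a log2 change reached 0.29 to either side in cortex and 0.22 in hippocampus.

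The 9 genes, the lists and the tests were chosen with earlier results of these data known. Named genes were the 9 genes, up to 3 genes of smallest p in cortex per role of the list, and the 5 most correlated with Akt2 in cortex. Genes named for overlapping exons or for failing the filter, and Lcn2 and Igf1, were chosen after their values were seen. Alternatives were DESeq2 1.42.0, limma-voom 3.58.1, RLE factors, all genes with a count, a minimum of 1 CPM, each library left out, a replicate block, grouping by title, the 4 libraries with agreeing labels, and marker covariates. The fits were tested on simulated data. Some values that these plans cover are not reported here.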

Additional observations from a re-analysis of the deposited data

Results flagged for a closer look

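In 104 groups of values looked at, 11 had a highest or lowest library whose gap to the nearest other library was large against the range of its group (past Dixon's 95% critical value); chance flags about 1 group in 20. With LPS in prefrontal cortex, Sample 7L had the lowest Insr level (54.9 CPM, against 67.0 to 69.1 CPM in the other LPS libraries) and Sample 2L the lowest Socs3 level (11.8 CPM, against 28.2 to 31.0 CPM). In the saline group of the same tissue, Sample 3L was low for Mtor (138 CPM, against 178 to 181 CPM) and high for the Insr to Igf1r ratio (0.805, against 0.681 to 0.701). Sample 1L was high for Pik3r2 (189 CPM), Sample 8L for Inpp5k (35.4 CPM) and Sample 6L for Trib2 (45.3 CPM). In the hippocampal saline group, Sample 2N was low for Igf1r (58.8 CPM, against 75.9 to 85.4 CPM), Pdpk1 (107 CPM, against 128 to 134 CPM), Mtor (76.8 CPM, against 108 to 119.7 CPM) and Gsk3b (163 CPM, against 216 to 225 CPM). Without Sample 2N none of the 9 genes was called in hippocampus, as with it.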

How the results depend on the processing

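The cortical results rest on the column names. Grouped by title, 0 genes were called in either direction, of all genes, of the 9 and of the list; the Irs2 to Irs1 ratio differed by 0.11 and the Insr to Igf1r ratio by -0.12 (log2), and signs turned for Insr (-0.012), Igf1r (0.13), Irs1 (0.38), Mtor (0.17), Igfbp4 (-0.085), Pik3r1 (-0.022), Pik3r3 (0.20), Trib2 (0.038), Rheb (0.040), Rps6kb1 (-0.064), Ulk1 (-0.000295), Rps6kb2 (-0.035), Gsk3a (-0.012), Tbc1d4 (0.15), Sgk3 (-0.17) and Slc2a4 (-0.30). Over the other cortical alternatives, 604 of 663 gene values kept their direction and side of the threshold, and 7 changed sign: Irs1 (0.052) and Mtor (0.11) with the 4 agreeing libraries, where Akt2 stayed called (-0.92) and Irs2 reached 1.37, Pdpk1 with the striatal covariate (-0.025) and Pdpk1 in 4 fits with 1 library left out (-0.028 to 0.066 over all 8). With the oligodendrocyte covariate the calls were 1415 higher and 1081 lower, with 0 of the 9 genes higher (log2 changes of 0.96 for Irs2, 0.39 for Insr and 0.32 for Gsk3b), and 17 higher and 4 lower in the list; the cause was not tested. With 1 library left out, the 9 genes had 1 to 2 lower calls; Irs2 to Irs1 differed by 1.13 to 1.35 and Insr to Igf1r by 0.38 to 0.47, each with an exact p of 0.0571, the smallest that 3 against 4 libraries allow. In hippocampus such fits gave log2 changes of -0.049 to 0.030 for Akt2 and -0.012 to 0.063 for Pdpk1, -0.086 to 0.0073 for Irs2 to Irs1, -0.033 to 0.0084 for Insr to Igf1r, and 0 to 1 gene called lower; DESeq2 called 8 higher and 7 lower.

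Title numbers did not pair the cortical libraries (correlations of deviations -0.20 to -0.04) or the hippocampal ones (-0.19 to 0.55). With a replicate block, 3144 cortical genes were higher and 2920 lower, Akt2 changed by -0.85 (adjusted p = 0.000441), the Pik3r3 and Rps6kb2 calls were lost (adjusted p = 0.0990 and 0.0513), and hippocampus had 0 calls. Another scaling moved the median of all genes by under 0.1 in each tissue.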
